A study of Mus musculus with 9 samples.

Results

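The 10 genes described here encode the mouse receptors for the constant (Fc) part of IgG and IgE antibodies, the adaptors through which such receptors signal, and the kinase that these adaptors engage. They were taken by gene name from the 54361 genes of the deposited table and are Fcgr1, Fcgr2b, Fcgr3, Fcgr4, Fcer1a, Fcer1g, Ms4a2, Tyrobp, Syk and Fcgrt. All 10 were in the table, and 8 of them passed the filter on low values and were tested; Fcer1a and Ms4a2 did not pass it.

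RNA had been sequenced from 9 libraries of cells that the labels call eosinophils of the lung (granulocytes known from allergy and worm infection). The mice were C57BL/6. The tumour-bearing groups came from mice injected through the tail vein with PyMT tumour cells in 200 µl of saline, which seeds tumours in the lung. Their labels divide the cells by surface Siglec-F into iEOS (Siglec-F high, n = 3) and rEOS (Siglec-F int, n = 3). The naive group (n = 3) stems from mice that received saline without tumour cells. A library holds cells of 3 to 4 mice, so that n is a number of pools, and whether mice of different pools were housed or injected together is not stated. The age and sex of the mice are not given in the sources used here.

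Fc gamma receptors are cell-surface proteins that bind IgG on coated particles and immune complexes. In the mouse, the products of Fcgr1, Fcgr3 and Fcgr4 are activating and have no signalling tail of their own. They associate with the Fc receptor gamma chain, the product of Fcer1g, which carries an ITAM, a tyrosine motif that is phosphorylated by Src family kinases and then bound by the kinase Syk. Fcgr2b encodes the inhibitory receptor, whose tail carries an ITIM and recruits the phosphatase SHIP1. Tyrobp encodes DAP12, another ITAM adaptor, which serves receptors such as TREM proteins. Fcer1a and Ms4a2 encode the alpha and beta chains of the high-affinity IgE receptor of mast cells and basophils, and Fcgrt encodes the heavy chain of the neonatal Fc receptor, which salvages IgG inside cells together with beta-2 microglobulin. These receptors are carried by many myeloid cells, macrophages and monocytes among them, as well as by granulocytes.

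The promoters of the 3 activating IgG receptors and of the inhibitory one are shown because these 4 genes form the summed ratio described below. Each window runs from 250 bases before to 50 bases after the gene's start in RefSeq (GRCm38.p6), 5′ to 3′ on the gene's strand, and capitals mark matches to GAGGAA (the PU box, the core of PU.1 sites; its reverse complement reads TTCCTC). The motif was searched on both strands.
Fcgr1, chr3:96293920-96294219, minus strand: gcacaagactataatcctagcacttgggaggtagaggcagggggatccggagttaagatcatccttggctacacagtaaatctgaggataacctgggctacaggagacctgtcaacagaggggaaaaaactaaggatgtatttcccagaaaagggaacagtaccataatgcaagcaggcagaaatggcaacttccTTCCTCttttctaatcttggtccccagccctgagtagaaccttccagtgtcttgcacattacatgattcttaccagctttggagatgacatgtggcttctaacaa
Fcgr3, chr1:171059354-171059653, minus strand: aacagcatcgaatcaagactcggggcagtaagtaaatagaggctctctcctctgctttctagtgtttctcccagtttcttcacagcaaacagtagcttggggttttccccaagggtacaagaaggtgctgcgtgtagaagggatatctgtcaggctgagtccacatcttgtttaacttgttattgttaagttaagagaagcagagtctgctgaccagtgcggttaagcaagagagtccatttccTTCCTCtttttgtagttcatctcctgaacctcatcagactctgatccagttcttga
Fcgr4, chr1:171018676-171018975, plus strand: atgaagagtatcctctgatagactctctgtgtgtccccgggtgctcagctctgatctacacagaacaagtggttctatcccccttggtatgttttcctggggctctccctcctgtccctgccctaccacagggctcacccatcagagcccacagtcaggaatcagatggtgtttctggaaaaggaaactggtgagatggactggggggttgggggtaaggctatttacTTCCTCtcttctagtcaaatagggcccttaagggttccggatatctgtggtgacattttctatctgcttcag
Fcgr2b, chr1:170976022-170976321, minus strand: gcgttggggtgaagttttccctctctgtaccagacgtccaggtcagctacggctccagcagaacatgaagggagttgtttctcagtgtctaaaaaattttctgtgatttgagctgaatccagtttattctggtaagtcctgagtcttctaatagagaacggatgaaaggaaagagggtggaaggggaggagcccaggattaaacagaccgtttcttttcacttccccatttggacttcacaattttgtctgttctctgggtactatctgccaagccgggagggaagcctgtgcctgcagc

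GAGGAA lay on the reverse strand of all 3 activating receptors, beginning at position -55 in Fcgr1, -6 in Fcgr3 and -22 in Fcgr4, counted from the first transcribed base. It was not found in the Fcgr2b window. Of 32851 RefSeq promoter windows of this length, 28.3% held GAGGAA. For the members there were 11 windows, of 9 of the 10 genes, and 6 of the 11 held GAGGAA. By gene, 5 of the 9 had a window with it, Fcer1a and Syk being the others. Another window of Fcgr3, not shown, held it at -15. Of the Syk windows, only that at chr13:52596632-52596931 held it. These are matches of letters, and binding was not measured.

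The libraries held 4941900, 7171066 and 5148291 reads in iEOS, 7517513, 11566723 and 12495639 in rEOS, and 4453385, 2205949 and 5529406 in naive. The summed level of 12 eosinophil markers was 518 to 1156 in iEOS, 194 to 420 in rEOS and 268 to 742 in naive, and none of the 6 that were tested was called in any comparison. The highest of them was the ribonuclease gene Ear2, with 1478 reads in iEOS, 1250 in rEOS and 627 in naive, while Prg2 had 452, 360 and 18 reads in that order. Siglecf had 39, 96 and 28 reads, Epx had 20, 16 and 3, and Ccr3 had 29, 33 and 0. Prg3 and Cebpe were also at 0 in naive. These reads are group totals, and the groups differ in depth, so levels are compared by mean normalized counts. In the same order these were 409, 170 and 309 for Ear2 and 128.9, 39.1 and 5.01 for Prg2. They were 11.88, 12.76 and 16.02 for Siglecf, 5.69, 1.69 and 1.15 for Epx, and 10.03, 3.76 and 0 for Ccr3. The libraries are therefore called by their labelled group names. The summed level of 16 monocyte and macrophage markers, none of them at 0, was 29099 to 35034 in iEOS, 30735 to 124636 in rEOS and 11880 to 16586 in naive, and 9 of the 16 were called higher in iEOS and 11 in rEOS than in naive. The summed level of 12 pigment cell markers was 212 to 1101 in iEOS, 371 to 714 in rEOS and 65407 to 73664 in naive, and all 12 were called lower in both tumour groups. The summed level of 12 fibroblast markers was 35531 to 50840 in iEOS, 17205 to 36161 in rEOS and 8237 to 9872 in naive. Of these 12, 8 were called higher in iEOS and 6 in rEOS than in naive. That of 12 dendritic cell markers was 5466 to 22178 in iEOS, 19022.5 to 71548 in rEOS and 5998 to 14570 in naive, and of 11 tested 0 and 2 were called higher. For 11 alveolar macrophage markers it was 5457 to 7162 in iEOS, 2847 to 4252 in rEOS and 2883 to 4337 in naive. Of 10 tested, 2 were called higher in iEOS and 1 in rEOS. Ear1 is on this list and on the eosinophil list. For 12 neutrophil markers it was 1946 to 3978 in iEOS, 1244 to 1794 in rEOS and 2437 to 3546 in naive. Of 11 tested, 1 was called lower in each tumour group. The sums of the 16 monocyte and macrophage markers and of the fibroblast markers are higher in both tumour groups. Of the members called below, Fcgr2b and Fcer1g were called higher in both, and Fcgr1, Fcgr3 and Syk in rEOS only. The part of any of these cell types in the results was not tested. In bulk RNA such as this, fewer cells of a type and less RNA per cell cannot be told apart. The markers of rEOS library 2 stand apart, with a monocyte and macrophage marker sum of 124636 against 30735 and 37480 in rEOS libraries 1 and 3. The members' calls in rEOS against naive are given with and without this library. The marker calls, the fold changes of Ptprc and B2m, the group means and the gene correlations below are given only with it.

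The inhibitory receptor and the gamma chain were called higher in both groups from tumour-bearing lungs, and 3 further genes in rEOS only. In iEOS against naive, Fcgr2b and Fcer1g rose, which is 2 of the 8 genes tested. In rEOS against naive, 5 of the 8 rose, namely Fcgr1, Fcgr2b, Fcgr3, Fcer1g and Syk. Called means a Benjamini-Hochberg adjusted p of at most 0.05 in limma over the 13642 genes tested, on log2(value + 1). Of all genes tested, 31.3% were called in iEOS against naive (14.7% as higher and 16.6% as lower) and 22.3% in rEOS against naive (12.0% as higher and 10.3% as lower). No member fell in either comparison. All iEOS libraries were above all naive libraries for 3 of the 8 genes, Fcgr2b, Fcgr3 and Fcer1g, where 20.2% of all genes tested showed this, and all rEOS libraries were above all naive libraries for the 5 called genes, where 23.3% showed it. The median log2 difference of the 8 genes was 0.83 in iEOS against naive, where that of all genes was -0.11, and 1.54 in rEOS against naive, where that of all genes was -0.02. Both comparisons use the same naive libraries. Values below are deposited normalized counts, scaled per library and not corrected for gene length or other differences between genes. Levels are therefore compared between libraries and not between genes.

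**Figure D1:**
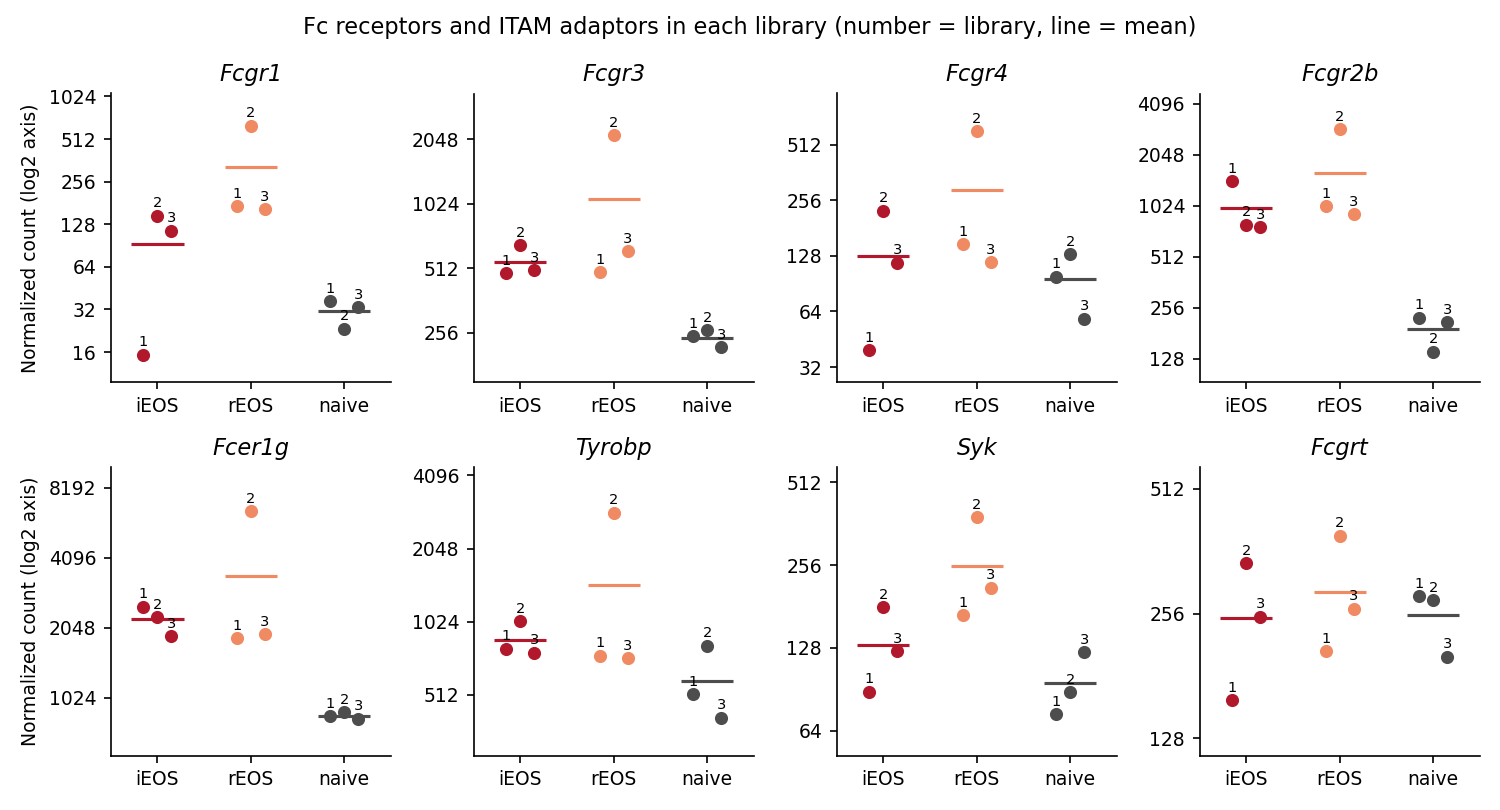
Deposited normalized counts (vertical axis, log2 scale) of the 8 tested members in each of the 9 libraries, grouped as iEOS, rEOS and naive, with each numbered point a library of 3 to 4 pooled mice and each line a group mean. Fcgr2b and Fcer1g lie higher in all 6 tumour libraries than in all 3 naive libraries, Fcgrt overlaps in all groups, and rEOS library 2 is the highest library for Fcgr1, Fcgr2b, Fcgr3, Fcgr4, Fcer1g, Tyrobp, Syk and Fcgrt.

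Among the activating receptors, Fcgr1 encodes the high-affinity IgG receptor CD64, which binds single IgG molecules. Fcgr1 had 15.4, 147 and 115 normalized counts in iEOS, 172, 637 and 164 in rEOS, and 36.7, 23.4 and 33.4 in naive. The 3 rEOS libraries were above all others, and the iEOS libraries lay on both sides of naive, library 1 below and libraries 2 and 3 above. Fcgr1 was 8.31-fold higher in rEOS than in naive (log2 difference 3.05 ± 0.81 SE, limma adjusted p = 0.0222). Without rEOS library 2 the difference was 2.41 with limma adjusted p = 0.0882, and it was also not called without naive library 1, 2 or 3 (limma adjusted p = 0.0546, 0.0683 and 0.0560). In iEOS against naive it was not called (1.05 ± 0.81, limma adjusted p = 0.328). Without iEOS library 1 that difference was 2.05 with limma adjusted p = 0.0155. Fcgr1 rests on 396 reads in iEOS, 2351 in rEOS and 81 in naive.

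Fcgr3 encodes a low-affinity receptor for immune complexes, widely expressed on myeloid cells. It had 487, 657 and 502 normalized counts in iEOS, 493, 2137 and 618 in rEOS, and 247, 263 and 219.7 in naive. All 6 tumour libraries were above all 3 naive ones. In rEOS it was 3.57-fold higher than in naive (log2 difference 1.83 ± 0.47, limma adjusted p = 0.0203), and without rEOS library 2 the difference was 1.18 with limma adjusted p = 0.0279. It was not called without naive library 1 or 3 (limma adjusted p = 0.0572 and 0.0630). In iEOS the difference from naive, 1.16 ± 0.47, was not called, and the groups did not overlap (limma adjusted p = 0.0820). It was called when rEOS library 2 was left out of the shared fit (limma adjusted p = 0.0139).

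Fcgr4 encodes a receptor for IgG2a and IgG2b. It had 39.5, 225 and 118 normalized counts in iEOS, 149, 605 and 118 in rEOS, and 98.6, 130.25 and 58.5 in naive. All 3 groups overlapped. Neither difference from naive was called, at 0.16 ± 0.72 in iEOS (limma adjusted p = 0.879) and 1.26 ± 0.72 in rEOS (limma adjusted p = 0.231). The difference of iEOS from naive turned to -0.41 without iEOS library 2 and to -0.15 without naive library 3, and that of rEOS was 0.54 without rEOS library 2. Fcgr2b, Fcgr3 and Fcgr4 lie within the same stretch of chromosome 1 and are related in sequence, and how reads that fit more than 1 of them were counted is not given in the sources used here, so the split between them is uncertain. On GRCm38 the genes span chr1:170958617-170976547, chr1:171051174-171064935 and chr1:171018920-171029761, and Fcer1g follows at chr1:171229572-171234365.

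The inhibitory receptor was called in both comparisons, whichever alternative was run. Fcgr2b had 1424, 792 and 766 normalized counts in iEOS, 1018, 2891 and 910.0 in rEOS, and 224, 141 and 210.5 in naive. The lowest tumour library, at 766, was above the highest naive one, at 224. Fcgr2b was 5.05-fold higher in iEOS than in naive (log2 difference 2.34 ± 0.45, limma adjusted p = 0.00475) and 7.36-fold higher in rEOS than in naive (2.88 ± 0.45, limma adjusted p = 0.00219). Over the alternatives, in limma, edgeR and DESeq2, the adjusted p ran from 1.57e-05 to 0.0207 in iEOS and from 2.73e-08 to 0.00987 in rEOS. Without rEOS library 2, the rEOS difference was 2.35. The antisense gene Gm38204 overlaps 155 bases of Fcgr2b exons and had 0 reads in all 9 libraries. Fcgr2b rests on 3524 reads in iEOS, 11636 in rEOS and 501 in naive.

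Set against each other in the same library, the activating receptors as a sum were lower relative to the inhibitory one in tumour libraries. The log2 ratio of the summed levels of Fcgr1, Fcgr3 and Fcgr4 to that of Fcgr2b was -1.39, 0.38 and -0.06 in iEOS, -0.32, 0.22 and -0.02 in rEOS, and 0.77, 1.56 and 0.56 in naive. All 6 tumour libraries were below all 3 naive libraries. The mean ratio was -0.36 ± 0.92 in iEOS, -0.04 ± 0.27 in rEOS and 0.96 ± 0.53 in naive (SD, n = 3 each). The ratio was described and not tested, and what share of other gene ratios separates in this way was not computed. Only its change across libraries can be read, since the counts were not put on a common scale between genes. It does not depend on the size factor of a library.

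The sum is mostly Fcgr3, and its members differed. The log2 ratio of Fcgr3 to Fcgr2b was -1.55, -0.27 and -0.61 in iEOS, -1.04, -0.44 and -0.56 in rEOS, and 0.14, 0.90 and 0.06 in naive, again with no overlap. That of Fcgr4 to Fcgr2b was -5.14, -1.81 and -2.69 in iEOS, -2.77, -2.26 and -2.94 in rEOS, and -1.17, -0.11 and -1.83 in naive. Here iEOS library 2 reached the lowest naive library. That of Fcgr1 to Fcgr2b was -6.44, -2.42 and -2.72 in iEOS, -2.56, -2.18 and -2.47 in rEOS, and -2.57, -2.53 and -2.62 in naive. The Fcgr1 ratio in rEOS overlapped the naive range, and iEOS library 1 stood far below the rest.

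**Figure D2:**
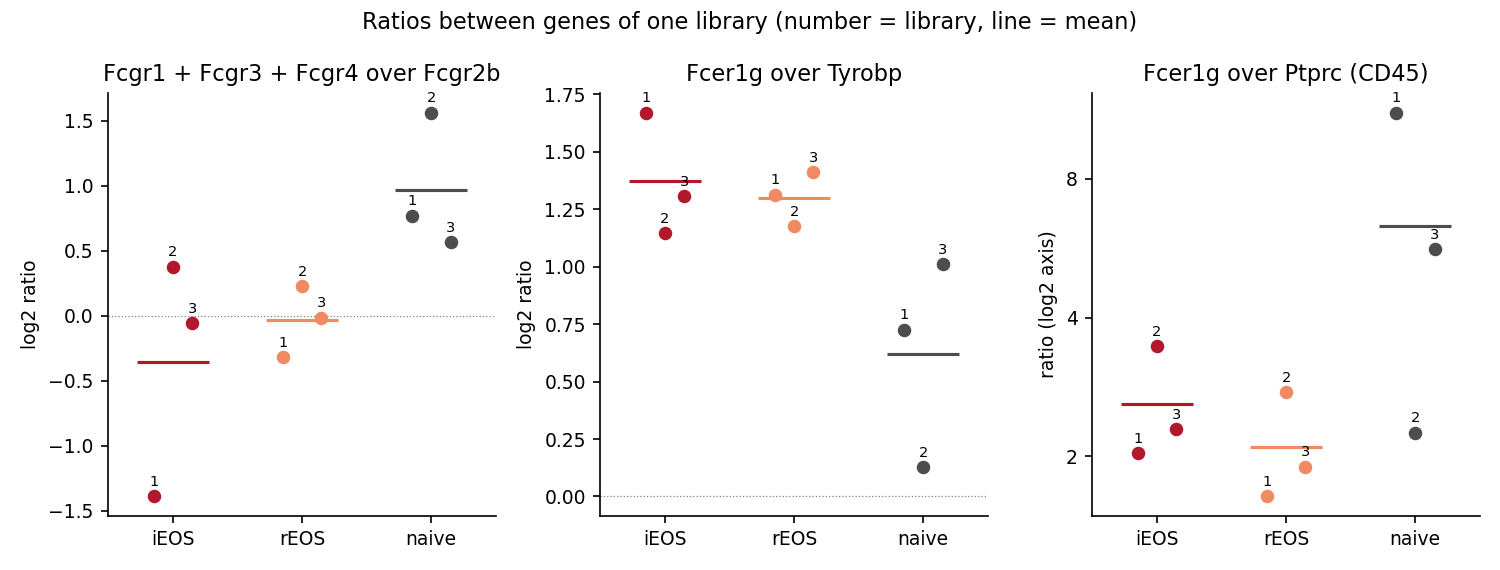
Ratios within each library (vertical axes) of the summed activating receptors to Fcgr2b and of Fcer1g to Tyrobp, both as log2 ratios, and of Fcer1g to Ptprc on a log2 axis, by group, with each numbered point a library and each line a group mean. The summed activating receptors relative to Fcgr2b lie below every naive library in all 6 tumour libraries, and Fcer1g relative to Tyrobp lies above every naive library in all 6. Fcer1g relative to Ptprc overlaps between the groups through naive library 2, at 2.25.

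Both adaptors and the kinase were highest in rEOS library 2, and 1 adaptor was called in both comparisons. Fcer1g, the gamma chain, had 2529, 2275 and 1891 normalized counts in iEOS, 1849, 6499 and 1929 in rEOS, and 856, 891 and 832 in naive. The naive libraries lay close together and below every tumour library. Fcer1g was 2.58-fold higher in iEOS than in naive (log2 difference 1.37 ± 0.43, limma adjusted p = 0.0349) and 3.32-fold higher in rEOS than in naive (1.73 ± 0.43, limma adjusted p = 0.0172). The iEOS call was lost when any library of iEOS or naive was left out (limma adjusted p = 0.0507 to 0.0872, log2 difference 1.27 to 1.48). The rEOS call was lost without naive library 1 or 3 (limma adjusted p = 0.0530 and 0.0534) and kept without rEOS library 2, at 1.14 with limma adjusted p = 0.0177.

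Tyrobp, the DAP12 adaptor, had 794, 1029 and 763 normalized counts in iEOS, 743, 2873 and 725 in rEOS, and 517, 815 and 413 in naive. Naive library 2 was above 2 of the 3 libraries of each tumour group, so the groups overlapped. The log2 difference from naive was 0.61 ± 0.50 in iEOS (limma adjusted p = 0.355) and 1.05 ± 0.50 in rEOS (limma adjusted p = 0.153), and neither was called. DESeq2 on the recovered reads called the rEOS difference (1.41, DESeq2 adjusted p = 0.0350), and without rEOS library 2 limma gave 0.39. Fcer1g relative to Tyrobp, as a log2 ratio in the same library, was 1.67, 1.14 and 1.31 in iEOS, 1.31, 1.18 and 1.41 in rEOS, and 0.72, 0.13 and 1.01 in naive. The 2 adaptors therefore did not move by equal amounts: every tumour library had a higher ratio than every naive one. The nearest were iEOS library 2, at 1.14, and naive library 3, at 1.01. What share of other gene pairs separates in this way was not computed.

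Syk had 88.8, 180.2 and 125 normalized counts in iEOS, 168, 382 and 212 in rEOS, and 73.4, 88.6 and 124 in naive. The rEOS libraries were above all naive ones, while iEOS library 1 lay inside the naive range. Syk was 2.55-fold higher in rEOS than in naive (log2 difference 1.35 ± 0.42, limma adjusted p = 0.0425). This call was lost without any 1 of the 3 rEOS libraries (limma adjusted p = 0.0597, 0.145 and 0.102), any 1 of the 3 naive libraries (0.125, 0.0925 and 0.0565) or iEOS library 3 (0.0622). In iEOS the difference from naive was 0.43 ± 0.42 and was not called (limma adjusted p = 0.441).

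**Figure D3:**
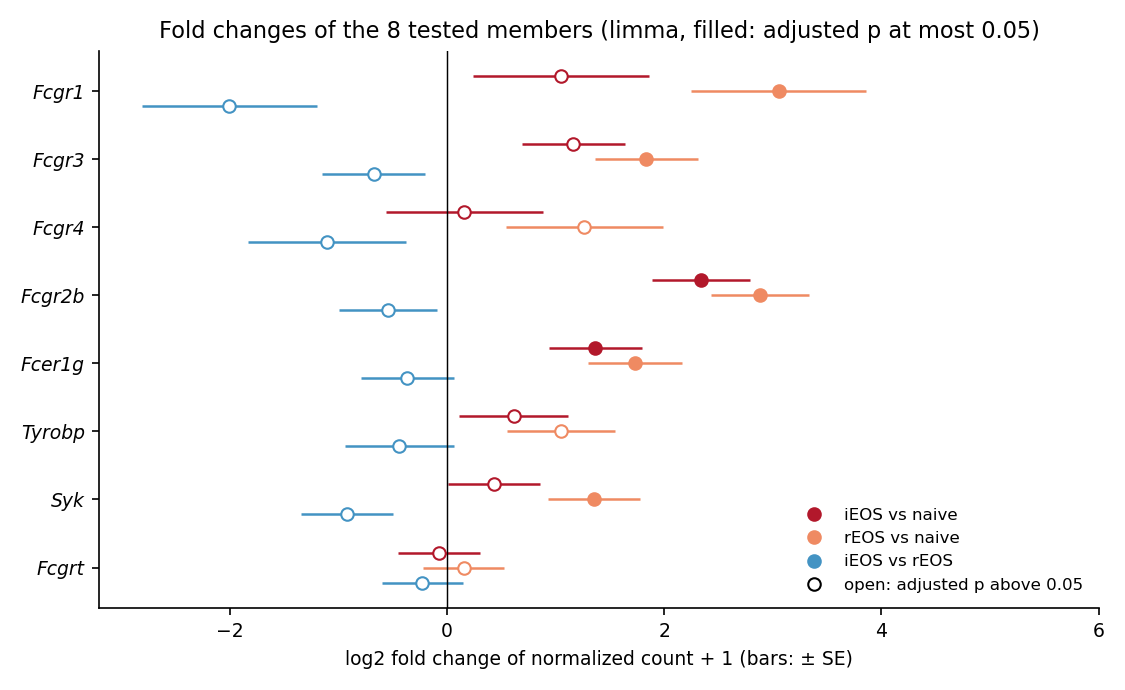
Log2 differences of the 8 tested members (horizontal axis, log2(value + 1) scale) with their standard errors from limma, for iEOS against naive, rEOS against naive and iEOS against rEOS. Fcgr2b lies at 2.34 and 2.88 in the first 2 comparisons, Fcgrt lies at -0.07 and 0.15, and all 8 values lie below 0 in iEOS against rEOS, where none was called.

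The IgE receptor chains were at or near the limit of detection. Fcer1a had 0, 0 and 0 reads in iEOS, 1, 3 and 11 in rEOS, and 0, 0 and 0 in naive. Ms4a2 had 0, 0 and 0 reads in iEOS, 2, 0 and 8 in rEOS, and 0, 1 and 0 in naive. A library with 0 reads still allows a level of up to 3 reads, which is 1.79 to 3.29 normalized counts in iEOS, 0.949 to 1.61 in rEOS and 2.51 to 7.82 in naive. The value of rEOS library 3 for Fcer1a, 3.48, was above the limits of all 3 iEOS libraries and of naive libraries 1 and 3, and below that of naive library 2. The values of rEOS libraries 1 and 2, 0.54 and 1.26, were below every iEOS and naive limit. Neither gene was tested. The limits cover counting error only. rEOS library 3, with the most reads of the 9, held 11 of the 15 Fcer1a reads and 8 of the 10 Ms4a2 reads of the rEOS group. The summed level of 12 mast cell and basophil markers was 345 to 485 in iEOS, 362 to 464 in rEOS and 367 to 451 in naive, and was mostly that of Hdc, Gata2 and Kit. The protease markers had few reads. Cpa3 had 9 reads in iEOS, 78 in rEOS and 1 in naive, Mcpt8 had 0, 16 and 0, and Prss34 had 0, 11 and 0, most of them in rEOS as for Fcer1a. Others did not follow this order. Cma1 had 9, 5 and 2 reads (mean 3.12, 0.63 and 0.763) and Mcpt4 had 0, 4 and 3 (mean 0, 0.567 and 2.61). Of the other markers, Mrgprb2 had 14, 0 and 0 reads and Cd200r3 had 0, 3 and 0. The rEOS libraries were also the deepest. Tpsb2 and Tpsab1 were at 0 in every group. The part of these cells in the IgE receptor reads was not tested.

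Fcgrt, the neonatal Fc receptor, had 158, 339 and 252 normalized counts in iEOS, 208, 395 and 263 in rEOS, and 282, 276 and 201 in naive. The 3 groups overlapped throughout. Neither difference from naive was called, at -0.07 ± 0.37 in iEOS (limma adjusted p = 0.895) and 0.15 ± 0.37 in rEOS (limma adjusted p = 0.793), and each took the other sign under some alternatives. Its light chain B2m, shared with MHC class I, had 23407, 10344 and 9442 normalized counts in iEOS, 10242, 18372 and 9158 in rEOS, and 3097, 3290 and 2357 in naive. B2m was 4.56-fold higher in iEOS than in naive (2.19 ± 0.40, limma adjusted p = 0.00374) and 4.15-fold higher in rEOS than in naive (2.05 ± 0.40, limma adjusted p = 0.00603), without overlap. Among the 8 members tested, Fcgrt had the smallest log2 difference from naive in size in both comparisons.

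iEOS and rEOS, both from tumour-bearing lungs, were compared in the same fit, and no difference between them was called. None of the 8 members tested was called in iEOS against rEOS, as was none of the 13642 genes (0.00%). At an unadjusted p under 0.05 limma gave 591 genes (4.33%), of which 1 was a member, edgeR called 0 genes after adjustment and DESeq2 called 6. All 8 log2 differences were negative, with a median of -0.61 where that of all genes was -0.08. Fcgr1 was the member farthest from 0, at -2.004 ± 0.81 (limma adjusted p = 0.797, unadjusted p = 0.0308), and, of the 8 tested, the 1 member without overlap between iEOS and rEOS, with iEOS the lower, which 5.75% of all genes tested showed. The other differences ran from -0.23 ± 0.37 for Fcgrt to -1.10 ± 0.72 for Fcgr4. Between libraries with the same number, iEOS was the lower in all 3 pairs for 5 of the 8, Fcgr1, Fcgr3, Fcgr4, Syk and Fcgrt. In pair 3, which holds neither iEOS library 1 nor rEOS library 2, it was the lower for 7 of the 8. Some of these were near ties, as for Fcgr4 in pair 3 (117.7 in iEOS, 117.98 in rEOS) and Fcgr3 in pair 1 (486.97 and 493.33). The share of all genes tested with this order was not computed, so the counts cannot be called particular to the members. The pairing itself is uncertain. The fitted values depended on iEOS library 1 and rEOS library 2. Leaving out both was chosen after seeing the data and also breaks pairs 1 and 2. Without them 5 of the 8 became positive, at 0.06 for Fcgr3, 0.30 for Fcgr4, 0.14 for Fcer1g, 0.27 for Tyrobp and 0.32 for Fcgrt.

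Ptprc encodes CD45, the common surface protein of leukocytes, and was used to set the members against the leukocyte transcript level of each library. It had 1244, 656 and 825 normalized counts in iEOS, 1129, 2358 and 1014 in rEOS, and 76.8, 396 and 148 in naive. It was 5.27-fold higher in iEOS than in naive (log2 difference 2.40 ± 0.55, limma adjusted p = 0.0105) and 8.38-fold higher in rEOS than in naive (3.07 ± 0.55, limma adjusted p = 0.00415).

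Relative to Ptprc the differences from naive took another form. Fcgr2b per unit of Ptprc was 1.14, 1.21 and 0.929 in iEOS, 0.902, 1.23 and 0.897 in rEOS, and 2.91, 0.355 and 1.42 in naive. The naive libraries lay on both sides of the tumour libraries. Fcer1g per unit of Ptprc was 2.03, 3.47 and 2.29 in iEOS, 1.64, 2.76 and 1.90 in rEOS, and 11.1, 2.25 and 5.63 in naive. Tyrobp per unit of Ptprc was 0.638, 1.57 and 0.926 in iEOS, 0.659, 1.22 and 0.714 in rEOS, and 6.73, 2.06 and 2.79 in naive. For Tyrobp every naive library was above every tumour library, whereas the groups overlapped in its level, and for Fcer1g naive library 2 lay within the tumour range. The same separation held for Fcgrt, at 0.127, 0.517 and 0.305 in iEOS, 0.184, 0.167 and 0.259 in rEOS, and 3.67, 0.697 and 1.36 in naive. Fcgr3 overlapped with naive in both tumour groups. Fcgr4 and Syk overlapped through iEOS library 2, at 0.343 and 0.275 against lowest naive values of 0.329 and 0.224. In rEOS both were below every naive library, at up to 0.256 for Fcgr4 and 0.209 for Syk. Ptprc itself was higher in both tumour groups, so a gene of unchanged level is higher per unit of Ptprc in naive. The share of all genes with such a separation was not computed. Fcgr1 per unit of Ptprc was 0.0123, 0.225 and 0.140 in iEOS, 0.152, 0.270 and 0.162 in rEOS, and 0.478, 0.0592 and 0.226 in naive, with overlap in all groups. The naive ratios rest on 67, 152 and 177 reads of Ptprc per library, and their spread follows that gene as much as the members.

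The wider pathway was described by 82 genes in 5 lists, all in the table, of which 74 were tested. In iEOS against naive, 17 rose and 1 fell, and in rEOS against naive 28 rose and none fell; in iEOS against rEOS none was called. Their median log2 difference was 0.44, 1.52 and -0.63 in the 3 comparisons in that order. With equal totals in place of the deposited scaling the counts were 20 higher and 0 lower in iEOS against naive, and 34 higher and 0 lower in rEOS against naive. Over all genes, the deposited scaling gave 1999 higher and 2267 lower in iEOS against naive, where equal totals gave 2141 and 1614. In rEOS against naive it gave 1634 higher and 1402 lower, where equal totals gave 2009 and 898 and TMM gave 1980 and 1060. The median log2 difference of all genes was 0.23 with equal totals and 0.17 with TMM in rEOS against naive, beside -0.02 as deposited, and 0.02 and 0.06 in iEOS against naive, beside -0.11. Of the 18 calls in iEOS, 6 were kept with each of the 9 libraries left out in turn, and of the 28 in rEOS 12 were kept.

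Of 28 tested enzymes and adaptors that act below the receptors, 7 rose in iEOS (25.0%, where 14.7% of all genes tested rose) and 13 in rEOS against naive (46.4%, where 12.0% of all genes rose), and none fell. Pik3r1, the regulatory subunit of PI3 kinase, averaged 126 ± 12.6 normalized counts in iEOS, 174 ± 15.9 in rEOS and 31.6 ± 7.92 in naive (SD, n = 3 each). Its log2 difference from naive was 1.98 ± 0.35 in iEOS (limma adjusted p = 0.00328) and 2.45 ± 0.35 in rEOS (limma adjusted p = 0.00152). Cybb, the catalytic subunit of the phagocyte NADPH oxidase, was higher by 2.27 ± 0.46 in iEOS (limma adjusted p = 0.00610) and 2.86 ± 0.46 in rEOS (limma adjusted p = 0.00244). Both were kept with any library left out. Lyn, a Src family kinase that phosphorylates ITAMs, rose by 1.88 ± 0.51 in iEOS (limma adjusted p = 0.0202) and 2.29 ± 0.51 in rEOS (limma adjusted p = 0.0109). Plcg2, a phospholipase of the gamma class that works below Syk, rose by 1.07 ± 0.30 in iEOS (limma adjusted p = 0.0218) and 1.56 ± 0.30 in rEOS (limma adjusted p = 0.00525). In iEOS the Lyn call was lost without naive library 1 or 2, and the Plcg2 call without naive library 1 or 3. Lat2, a membrane adaptor for signalling complexes, rose in rEOS (3.05 ± 0.65, limma adjusted p = 0.00851) and not by the test in iEOS (1.76 ± 0.65, limma adjusted p = 0.0590).

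Of 12 genes of the ITIM pathway and other negative regulators, 3 rose (25.0%, against 14.7% of all genes) and 1 fell (8.33%, against 16.6% of all genes) in iEOS, and 4 rose in rEOS (33.3%, against 12.0% of all genes). Cblb, a ubiquitin ligase, was higher by 2.59 ± 0.55 in iEOS (limma adjusted p = 0.00735), kept with any library left out, and by 1.96 ± 0.55 in rEOS (limma adjusted p = 0.0283), lost without naive library 1 or 2 or rEOS library 1 or 3. Sla, an adaptor that promotes receptor turnover, rose by 1.91 ± 0.52 in iEOS (limma adjusted p = 0.0196) and 1.95 ± 0.52 in rEOS (limma adjusted p = 0.0225), lost in iEOS without naive library 1 or 3 and in rEOS also without rEOS library 2 or 3. Pag1, the membrane anchor of Csk, rose by 2.94 ± 1.00 in iEOS (limma adjusted p = 0.0455) and 3.14 ± 1.00 in rEOS (limma adjusted p = 0.0456). Its iEOS call was kept only without naive library 2, and its rEOS call only without naive library 2 or iEOS library 1. Csk, the kinase that holds Src family kinases inactive, averaged 513 ± 358 normalized counts in iEOS, 684 ± 312 in rEOS and 1459 ± 456 in naive. Its fall in iEOS (-1.85 ± 0.63, limma adjusted p = 0.0469) was lost when any library other than iEOS library 2 was left out. Inpp5d, which encodes SHIP1, the phosphatase that Fcgr2b recruits, rose in rEOS (1.47 ± 0.46, limma adjusted p = 0.0423), a call lost without naive library 1 or 3, iEOS library 3 or any rEOS library. In iEOS it differed from naive by 0.55 ± 0.46 (limma adjusted p = 0.370).

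Of 12 tested genes listed as receptors that pair with Fcer1g or Tyrobp, 2 rose in iEOS (16.7%, near the 14.7% of all genes) and 4 in rEOS (33.3%, against 12.0% of all genes). The list also holds Hcst, which encodes an adaptor and not a receptor, and which was not called in either comparison. Clec5a, a C-type lectin that pairs with DAP12, averaged 461 ± 480 normalized counts in iEOS, 451 ± 297 in rEOS and 22.01 ± 3.19 in naive. Its log2 difference was 3.83 ± 0.66 in iEOS (limma adjusted p = 0.00269) and 4.12 ± 0.66 in rEOS (limma adjusted p = 0.00238). Clec4e, the receptor Mincle, which pairs with the gamma chain, was higher by 1.90 ± 0.41 in iEOS (limma adjusted p = 0.00774) and 2.46 ± 0.41 in rEOS (limma adjusted p = 0.00279). Both kept their calls with any library left out. Klrk1, which encodes NKG2D, rose in rEOS (3.94 ± 0.85, limma adjusted p = 0.00892) and not by the test in iEOS (1.56 ± 0.85, limma adjusted p = 0.173). Its rEOS call was kept with any library left out. Cd300c2, a receptor of the CD300 family, rose in rEOS (2.03 ± 0.61, limma adjusted p = 0.0370), a call lost without naive library 1 or 3, iEOS library 3 or any rEOS library. In iEOS it differed from naive by 1.39 ± 0.61 (limma adjusted p = 0.101).

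Of 16 receptors that carry ITIMs, 5 rose in iEOS (31.2%, against 14.7% of all genes) and 7 in rEOS (43.8%, against 12.0% of all genes). Cd33, a sialic acid binding lectin, averaged 238 ± 41.8 normalized counts in iEOS, 263 ± 89.0 in rEOS and 33.9 ± 8.82 in naive, and its log2 difference was 2.79 ± 0.37 in iEOS (limma adjusted p = 0.000778) and 2.90 ± 0.37 in rEOS (limma adjusted p = 0.000883). Both calls were kept with any library left out. The tail of mouse CD33 differs from that of the human protein, in which the ITIMs are known. Clec4a2, an inhibitory C-type lectin, rose by 1.78 ± 0.50 in iEOS (limma adjusted p = 0.0227) and 2.27 ± 0.50 in rEOS (limma adjusted p = 0.00989). Clec12a, another, rose by 1.68 ± 0.52 in iEOS (limma adjusted p = 0.0317) and 2.44 ± 0.52 in rEOS (limma adjusted p = 0.00846). Both kept their rEOS calls with any library left out. In iEOS each of those 2 calls was lost on leaving out any 1 of 4 libraries, naive libraries 1 and 3 among them. Ceacam1, an adhesion molecule, rose by 1.68 ± 0.49 in iEOS (limma adjusted p = 0.0260), lost without naive library 1 or iEOS library 3, and by 1.71 ± 0.49 in rEOS (limma adjusted p = 0.0300), lost without naive library 1 or rEOS library 1 or 3. Lair1, a collagen receptor, rose by 2.77 ± 0.83 in iEOS (limma adjusted p = 0.0288), lost without naive library 1 or 3 or iEOS library 3, and by 3.61 ± 0.83 in rEOS (limma adjusted p = 0.0122), lost without rEOS library 2. Of 6 tested genes among 10 other Fc receptors and Fc-binding proteins, none was called in either comparison. Fcrls, an Fc receptor-like gene, averaged 120 ± 92.2 normalized counts in iEOS, 459 ± 461 in rEOS and 69.9 ± 12.8 in naive, and Trim21, the cytosolic antibody receptor, averaged 17.5 ± 5.96 in iEOS, 21.8 ± 16.5 in rEOS and 16.6 ± 12.9 in naive (SD, n = 3 each).

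**Figure D4:**
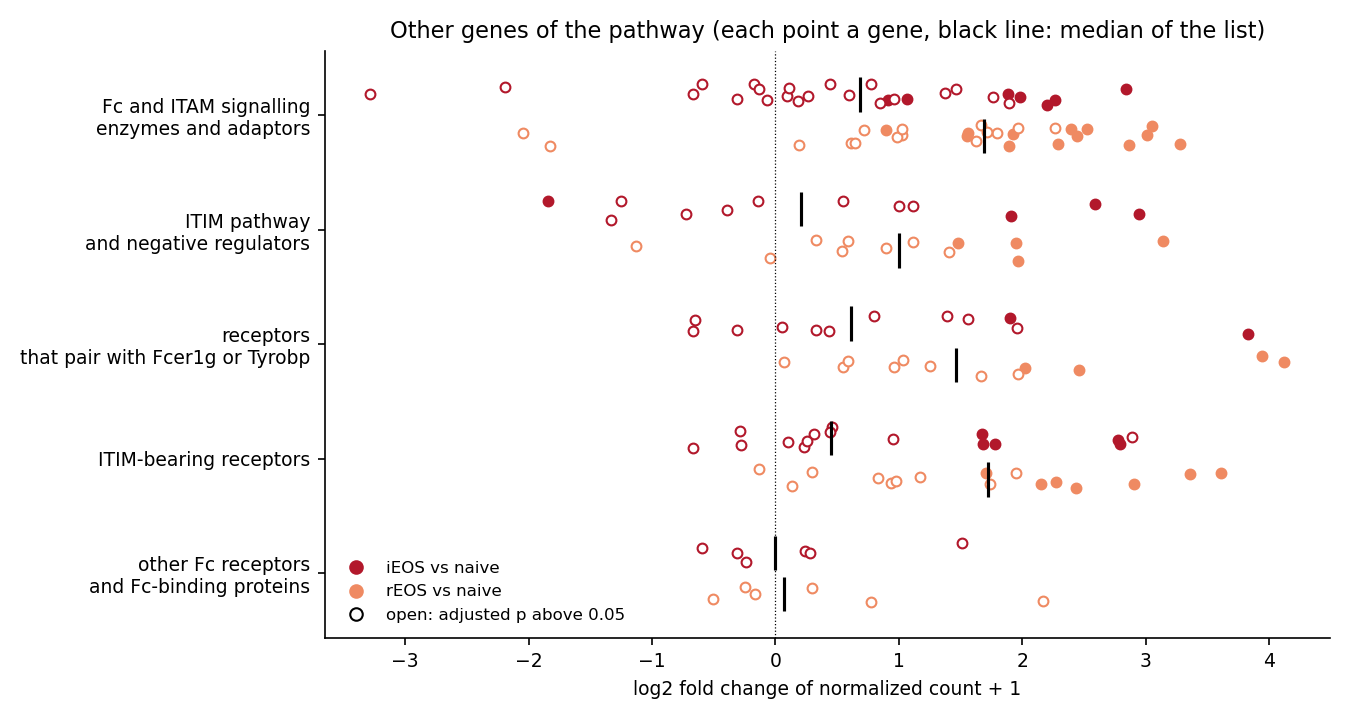
Log2 differences (log2(value + 1) scale) of the tested genes of the 5 pathway lists in iEOS against naive and rEOS against naive, with each point a gene, filled where called, and each black line the median of a list. Called points lie to the right of 0 except for Csk in iEOS, and the list of other Fc receptors has no called point.

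The genes most like a member across the libraries were found by Pearson's r of log2(value + 1) over the 9 libraries among 8110 genes with a mean of at least 50. The points share their libraries and depths, and no p is given. Nearest to Fcer1g were the chemokine gene Ccl9 (0.993), the matrix gene Emilin2 (0.992), Clec4a2 (0.992) and the lysosomal protease gene Lgmn (0.980). Nearest to Tyrobp were Ucp2, a mitochondrial carrier (0.972), Ifi27l2a (0.961), the lysozyme gene Lyz2 (0.960), Alox5ap, which serves leukotriene synthesis (0.959), and Cd300ld (0.952). Nearest to Fcgrt were the chemokine gene Ccl6 (0.939), Hlx (0.923), Zfand2a (0.922), Gch1 (0.912) and Eloa (0.911). The lists of the 3 members shared no gene.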

How the data were processed

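The 9 libraries, 3 per group, held RNA of cells sorted from mouse lung; per the labels' protocols, 3 to 4 mice were pooled per library, the sort was over 98% pure, RNA integrity was over 6.3 and libraries followed a protocol named Cell-seq. Per the submitters' processing notes, TopHat2 2.1.0, HTSeq and DESeq2 1.10.0 were used with GRCm38. The deposited signal values are gene counts that the authors scaled by a size factor per library; strand settings are not given in the sources used here. Dividing by the smallest step gave whole reads for 100% of values up to 2000 reads, within 0.05 read, and 2205949 to 12495639 reads per library. Of 54670 entries, 63 whose names had become dates (0.219% of the total), 116 exact duplicates and 130 repeating a name and values were left out; 97.8% of the 54361 genes kept matched GENCODE M21.

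Genes with a mean of at least 5 were compared with limma 3.58.1 (R 4.3.3) on log2(value + 1), a scale that understates the change of low genes, fitted once across the 9 libraries and with a variance trend; p-values are two-sided, Benjamini-Hochberg adjusted, with a threshold of 0.05, and measure the spread between pools. The procedure was tested on simulated data. Same-numbered iEOS and rEOS libraries deviated together from their group means (r = 0.152, 0.175 and 0.101), and those of different number had r from -0.209 to -0.0192. The numbers of these 2 groups were therefore taken as pairs from the data, and naive numbers were not. This pairing is uncertain, since naive library 3 with iEOS library 1 had r = 0.151 and naive library 2 with iEOS library 2 had r = 0.120. Alternatives were other pseudocounts, filters and scalings, narrower fits, a replicate block, leaving out each library, and count tests on the recovered reads (edgeR 4.0.16, DESeq2 1.42.0). Members and lists were chosen with earlier results of these data known. Besides the members, Ptprc and B2m, the text names up to 4 called genes per list, comparison and direction by adjusted p, otherwise the 2 with the highest mean, and, of the 5 nearest genes to Fcer1g, Tyrobp and Fcgrt, all but 1, which is not reported here. Figures were drawn with matplotlib 3.10.9.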

Additional observations from a re-analysis of the deposited data

How the results depend on the processing

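Precision is limited by 3 pools per group. Of the members' differences recomputed under all alternatives, 151 in iEOS against naive kept direction and call, 7 gained a call, 8 lost it and 10 turned sign; in rEOS against naive these numbers were 155, 1, 17 and 3, and in iEOS against rEOS 175 kept both and 9 turned sign. The number of members called in iEOS against naive, 2 as reported, was 1 without the filter, 1 without the variance trend, 4 without both iEOS library 1 and rEOS library 2, and 1 to 3 on leaving out single libraries; in rEOS against naive, 5 as reported, it was 1 to 5 on leaving out single libraries and 6 in DESeq2, and in iEOS against rEOS it was 0 throughout. Pathway genes called in iEOS against naive (18 as reported) numbered 11 without the filter, 9 in a fit of only those groups and 7 to 21 on leaving out single libraries; in rEOS against naive (28) they numbered 16 without the filter and 13 to 44. All genes called in iEOS against naive (4266) numbered 2509 in a fit of only those groups and 2758 to 5096 on leaving out single libraries; in rEOS against naive (3036) they numbered 4808, 4822 without both libraries, and 1401 to 5301. In iEOS against rEOS limma and edgeR called 0 and DESeq2 called 6. Fewer samples enter the narrower fits; otherwise the cause was not tested.

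With the replicate number as a block, the members called remained 2, 5 and 0 in number, and 4317 and 3091 genes were called against naive. The block changed no member's call, in the fit of only iEOS and rEOS either. Naive numbers were not taken as pairs with the others (r = 0.0123, 0.120 and -0.0628 with iEOS, -0.0139, 0.0887 and 0.0969 with rEOS). The 0.120 is above the 0.101 of iEOS library 3 with rEOS library 3, which was taken as a pair.

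Signs turned for differences that were not called. In iEOS against naive, Fcgr4 ran from -0.41 to 0.83 on leaving out single libraries (negative without iEOS library 2 or naive library 3) and Fcgrt from -0.33 to 0.22; Fcgrt was 0.065 with equal totals, 0.10 with TMM, 0.10 with quantile scaling, 0.16 in edgeR, 0.093 in DESeq2 and 0.22 without both libraries. In rEOS against naive, Fcgrt ran from -0.10 to 0.36 (negative without rEOS library 2 or naive library 3) and was -0.10 without both. In iEOS against rEOS, on leaving out single libraries, Fcer1g ran from -0.68 to 0.23, Tyrobp from -0.77 to 0.22 and Fcgrt from -0.48 to 0.068, positive without rEOS library 2 and, for Fcgrt, without iEOS library 1; without both libraries Fcgr3 was 0.057, Fcgr4 0.30, Fcer1g 0.14, Tyrobp 0.27 and Fcgrt 0.32. The mean activating to inhibitory ratio stayed lower in both tumour groups than in naive, from -0.73 to 0.16 in iEOS, -0.17 to 0.10 in rEOS and 0.67 to 1.16 in naive on leaving out single libraries; without iEOS library 1 iEOS, at 0.16, was above rEOS, at -0.04.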
